A study of Homo sapiens with 72 samples.

Results

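The response of long non-coding RNA (lncRNA) genes to TGF-β was followed over time in MCF10A-M1 (M1), a non-malignant human breast epithelial line. The course consisted of 12 libraries out of the 72 in the series: non-stimulated control cells (0 h) and cells given TGF-β at 5 ng/mL for 2, 8 or 24 h, with 3 biological replicates at each time. All cells had been held overnight in serum-free medium. A second arm of M1 received 10 µM of SB431542 (SB), which blocks type I TGF-β receptor kinase activity, with 3 libraries each at 2, 8 and 24 h and at a start called the earliest SB libraries here, since the labels give it as both 0 h and 0.5 h. A vehicle course at later times was not analysed here, so every change against 0 h also holds any change with time in culture. The earliest SB libraries served as a second starting point, and limma called 0 genes between the 0 h and the earliest SB libraries. At an unadjusted p under 0.05 there were 1187 of 20899 tested genes, or 1224 with libraries rescaled as set out further on. A share of 0.05 would pass that threshold with no difference between the starts. With 3 libraries in each group, the absence of calls does not show that the starts are alike.

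TGF-β binds a pair of serine/threonine kinase receptors on the cell surface, and the type I receptor phosphorylates SMAD proteins that enter the nucleus and regulate genes with partner factors. In mammary epithelial cells the pathway is known for growth arrest and for epithelial-mesenchymal transition. lncRNAs are transcripts without a long open reading frame; some act on chromatin, on neighbouring genes or as sponges for small RNAs, and most have no assigned function.

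The table gives TPM, a length-corrected share of the lncRNA total of a library, for 96411 lncRNA genes of the NONCODE catalogue. Of these, 20899 reached 0.5 TPM in at least 3 of the 24 M1 libraries and were tested; 9522 reached it in all 24. At the edge of that filter 990 genes passed with exactly 3 libraries and 1452 failed with 2, and 10 genes passed through the 3 libraries of a single group. Gene names are not paired with these identifiers in the files, so positions, sequences and functions of the genes are not given, and the epithelial identity of the line was not checked against marker genes. A pair of identifiers is printed for each direction, chosen by a rule of size and timing; all other genes are described by their values. Differences were taken between log2(TPM + 0.5) values, a scale on which those of genes at low levels come out too small. Limma calls use an adjusted p under 0.05 over all tested genes. The series text calls the replicates biological; if they were not separate cultures, the p-values cover only library spread, which may then be technical. In such bulk RNA, fewer cells that express a gene and less of its RNA per cell cannot be told apart.

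TPM is a share of a fixed total, and 2 of the 3 libraries at 24 h of TGF-β stood apart in how that total was divided. The 10 most abundant genes took 65.2% to 70.5% of TPM at 24 h and 61.4% to 62.6% at 0 h. Between 14205 and 15597 lncRNA genes reached 0.5 TPM at 24 h, against 15619 to 16239 at 0 h, without overlap. Replicates 1 and 2 at 24 h held 14513 and 14205 such genes and replicate 3 held 15597. At 8 h the ranges were 59.6% to 61.8% of TPM and 16434 to 16541 genes. Each comparison is therefore given as deposited and also with rescaled TPM, each library being divided by the median of its gene-wise ratios to the geometric mean over libraries (median-of-ratios). Over all tested genes the median log2 change at 24 h against 0 h was 0 rescaled and −0.25 as deposited, and the deposited medians at 2 and 8 h were −0.03 and 0.06. The rescaling takes the typical gene as unchanged, so its medians near 0 follow from the method. It cannot show whether lncRNA levels fell in general.

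**Figure D1:**
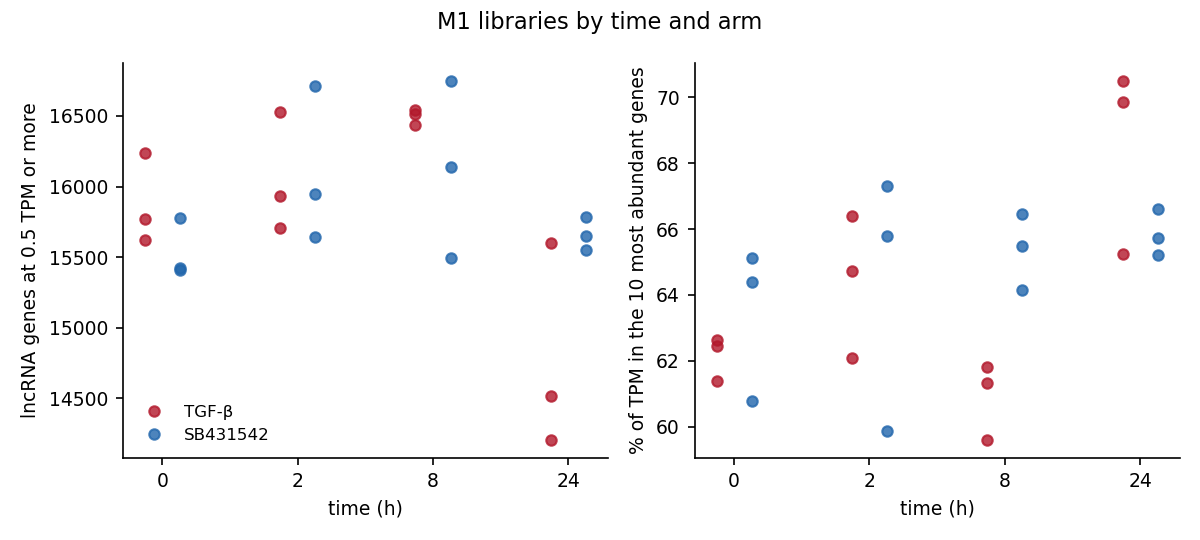
lncRNA genes that reached 0.5 TPM (left) and percent of TPM held by the 10 most abundant genes (right) in each M1 library by time in hours; red points are the TGF-β arm and blue points the SB arm. The 24 h TGF-β libraries lie between 14205 and 15597 genes, below the 15619 to 16239 of the 0 h libraries.

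The first question was how soon lncRNA genes responded. At 2 h of TGF-β limma called 105 genes higher (0.502% of those tested) and 71 lower (0.34%), 0.842% in either direction. The rises were the larger changes, with a median log2 change of 1.46 and 95 of 105 at 1 or more, while the falls had a median of −1.08 and 40 of 71 at −1 or below. After rescaling 174 genes were higher and 85 lower (1.24%), and 104 higher and 57 lower genes were called under both scalings. The count was 8 when the 0 h and 2 h libraries alone entered the fit, and between 85 (without 0 h replicate 2) and 122 when 1 library was left out; leaving out 0 h replicate 1 or 2 h replicate 3 gave 115 in each case.

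Among 26 falls called at all 3 times with at least 5 TPM and no overlap with 0 h, NONHSAG009471.2 was the one whose smallest change was largest. It stood at 29.9, 26.6 and 20.2 TPM at 0 h, at 7.69, 8.11 and 6.13 TPM at 2 h, at 4.91, 2.49 and 2.74 TPM at 8 h, and at 2.74, 1.65 and 2.76 TPM at 24 h. Every stimulated library lay below every 0 h library, and the 8 h libraries lay below those of 2 h. Its log2 changes against 0 h were −1.73, −2.78 and −3.18 at 2, 8 and 24 h (SE 0.23), with limma adjusted p of 0.000216, 4.16e-08 and 1.57e-09; with only the 0 h and 2 h libraries in the fit, the 2 h change was not called (limma adjusted p 0.0863). The step between 8 h and 2 h was called (−1.05, limma adjusted p 0.00675), whereas that between 24 h and 8 h was −0.40 (limma adjusted p 0.281) as deposited and −0.02 after rescaling. In the SB arm the gene ranged from 14.6 to 27.4 TPM over all 12 libraries and was called at no time. The TGF-β course differed from the SB course by −1.97 at 2 h, −3.24 at 8 h and −3.55 at 24 h (SE 0.32), with limma adjusted p-values of 0.00462, 8.41e-07 and 1.38e-07. In the Ras-transformed derivative MCF10A-M2 it stood at 15.5, 10.6 and 18.9 TPM at 0 h, at 1.39, 5.33 and 6.78 TPM at 2 h, at 9.03, 7.24 and 12.2 TPM at 8 h and at 3.81, 4.25 and 4.27 TPM at 24 h of TGF-β, so that its 8 h libraries lay above those of 2 h and overlapped those of 0 h. Under SB in M2 it stood at 13.6, 7.12 and 7.46 TPM at 2 h, after 13.4, 18.1 and 17.1 TPM at the start. At 24 h of SB in M2 it stood at 31.4, 30.2 and 33.7 TPM. In MDA-MB-231, a triple-negative breast cancer line, it was at 2.81 TPM or less in all TGF-β libraries.

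The rise chosen likewise from 18, NONHSAG031936.3, had uneven replicates at 0 h. It was listed at 0, 0 and 5.54 TPM at 0 h and stood at 10.9, 9.28 and 10.7 TPM at 2 h, at 12.7, 13.7 and 12.6 TPM at 8 h and at 6.92, 16.1 and 12.5 TPM at 24 h. All stimulated libraries lay above the 0 h libraries, and no later step was called (limma adjusted p 0.825 for 8 h against 2 h, and 0.932 for 24 h against 2 h). The log2 change was 3.23 at 2 h, 3.56 at 8 h and 3.35 at 24 h (SE 0.58; limma adjusted p 0.00518, 0.000291 and 0.000246). The 2 h call had a limma adjusted p of 0.0518 without 0 h replicate 2, and all 3 calls were lost in fits of the compared groups alone. In the earliest SB libraries, however, the gene stood at 4.21, 9.51 and 7.67 TPM, and against them neither 8 h (0.89, limma adjusted p 0.377) nor 24 h of TGF-β (0.68, limma adjusted p 0.514) was called. Under SB it was at 2.06, 2.72 and 2.23 TPM at 24 h, a change from the earliest SB libraries that was not called (−1.37, limma adjusted p 0.212). The courses of the 2 arms differed by 4.56 at 8 h and 4.71 at 24 h (SE 0.82; limma adjusted p 0.00163 and 0.000592), and by 3.32 at 2 h (limma adjusted p 0.105). In MDA-MB-231 the gene was listed at 0 in every TGF-β library, and in M2 it stood at 4.15, 3.57 and 0 TPM at 0 h, at 2.89 to 3.64 TPM at 2 h, at 1.69 to 2.0 TPM at 8 h and at 0.403, 0.593 and 0.928 TPM at 24 h. The M2 libraries at 24 h of SB overlapped the last of these, at 1.09, 0.429 and 0.622 TPM.

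**Figure D2:**
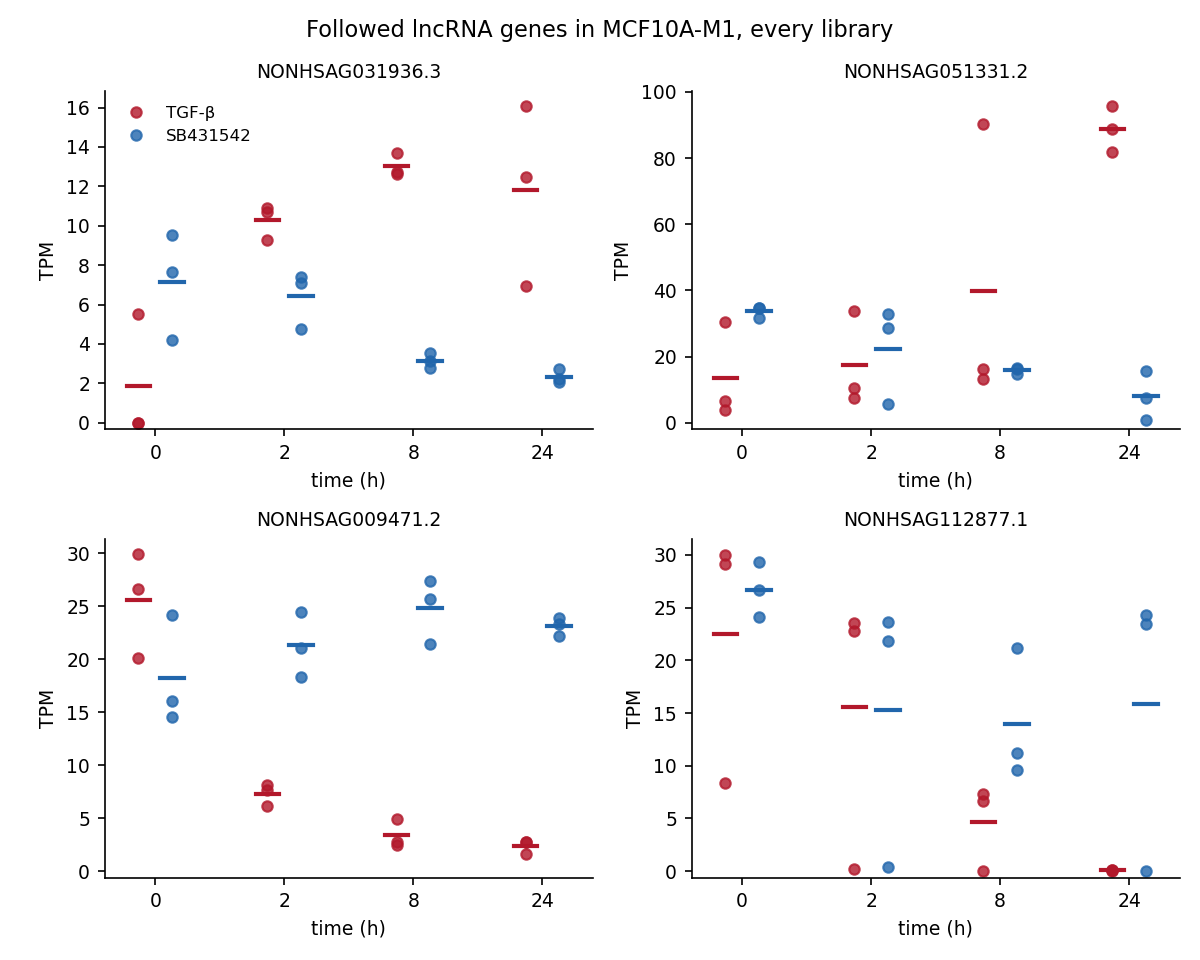
TPM of the 4 genes printed by identifier in every M1 library, by time in hours; red points are TGF-β libraries, blue points SB libraries, and bars are means of 3. NONHSAG009471.2 is at 8.11 TPM or less in all stimulated libraries; the other 3 genes have groups with a single library far from the others.

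Early rises differed in what followed. Among genes called higher at both 2 h and 24 h whose mean reached 1 TPM and whose groups did not overlap, the one with the largest 2 h change (3.37, SE 0.33, limma adjusted p 4.35e-06) stood at 0.793, 0.571 and 0.308 TPM at 0 h and at 7.40, 6.55 and 21.8 TPM at 2 h. It then stood at 4.23, 2.69 and 3.70 TPM at 8 h and at 4.91, 4.26 and 4.74 TPM at 24 h, below every 2 h library and above every 0 h library. The step between 8 h and 2 h was called (−1.43, limma adjusted p 0.011), and that between 24 h and 8 h was not (0.36, limma adjusted p 0.527). All 12 SB libraries held 0.774 TPM or less of this gene. Another gene was highest at 2 h and was not called against 0 h at 8 h or 24 h (0.58 and 0.41, limma adjusted p 0.242 and 0.392). It stood at 1.0, 0.883 and 0.966 TPM at 0 h, at 5.44, 5.01 and 7.14 TPM at 2 h, at 1.81, 1.03 and 2.39 TPM at 8 h and at 1.66, 1.45 and 1.18 TPM at 24 h. Its rise at 2 h was called (2.12, SE 0.29, limma adjusted p 0.000368), and so was the drop between 8 h and 2 h (−1.54, limma adjusted p 0.00234). Under SB it stood at 0.323, 0 and 0 TPM at 24 h, after 0.903, 0.497 and 1.2 TPM in the earliest SB libraries. The courses of the arms were called different at 24 h (1.58, SE 0.42, limma adjusted p 0.0195) and not at 8 h (1.43, limma adjusted p 0.0645). One more was at 6.97, 6.72 and 13.7 TPM at 2 h, against 1.13, 0.70 and 0.268 TPM at 0 h, and declined more slowly, with 3.03, 4.66 and 4.80 TPM at 8 h and 2.16, 2.28 and 1.33 TPM at 24 h; its 24 h change of 1.06 was not called as deposited (limma adjusted p 0.058) and was called after rescaling (1.36, limma adjusted p 0.0176).

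As deposited, 4 genes were called lower at 2 h, not called at 24 h against 0 h, and called higher at 24 h than at 2 h; after rescaling there were 21, of which 2 were among the 4. One stood at 39.1, 40.5 and 34.6 TPM at 0 h, at 19.9, 18.5 and 15.9 TPM at 2 h, at 32.4, 44.1 and 35.7 TPM at 8 h and at 39.7, 43.7 and 28.6 TPM at 24 h. A dip was also seen under SB, with 22.3, 22.0 and 27.1 TPM at 2 h after 46.4, 38.6 and 40.1 TPM in the earliest SB libraries. The courses of the arms differed by −0.25 at 2 h (SE 0.25, limma adjusted p 0.828). Another dipped to 12.2, 22.6 and 19.2 TPM at 2 h of TGF-β, against 33.6, 32.1 and 31.4 TPM at 0 h, and stood at 42.2 to 46.1 TPM at 8 h. At 24 h it stood at 37.9, 41.7 and 48.1 TPM, not called against 0 h as deposited (0.38, limma adjusted p 0.0934) and called higher after rescaling (0.77, limma adjusted p 0.000925). Under SB it was at 36.7, 47.0 and 44.0 TPM at 2 h, and the courses differed by −1.02 at that time (SE 0.22, limma adjusted p 0.0441).

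Whether the early changes lasted was then measured. The comparisons of 2 h and of 24 h with 0 h share the 0 h libraries. The genes called at 2 h were therefore followed against the earliest SB libraries, whose means that choice did not use. The spread of each gene was estimated from all 24 M1 libraries together. Genes with a small spread are called more readily in both comparisons, so the shares called are not fully independent of the choice. Of the 105 genes higher at 2 h, 70 were called higher at 8 h (66.7%, against 6.46% of all tested genes) and 49 at 24 h (46.7%, against 2.67%). In those comparisons 9.37% and 13% of all genes were called in either direction. The median log2 change of the 105 was 1.13 at 8 h and 0.70 at 24 h, with medians of 0.13 and −0.18 over all tested genes. After rescaling 99 of 174 were called higher at 8 h (56.9%, against 4.85%) and 92 at 24 h (52.9%, against 6.06%), with medians of 0.85 and 0.83. In the direct comparison of 24 h with 8 h the 105 genes had a median of −0.32, equal to that of all tested genes, and 7 were called lower (6.67%, against 5.98%). Of the 71 genes lower at 2 h, 20 were called lower at 8 h (28.2%, against 2.91%) and 47 at 24 h (66.2%, against 10.3%). After rescaling 37 of 85 were called lower at 8 h (43.5%, against 5.34%) and 43 at 24 h (50.6%, against 5.33%). Under both scalings the shares lay above those of all tested genes at both times. The counts of 49 and 47 were between 29 and 47, and between 26 and 72, when 1 library was left out. Without 0 h replicate 2 both were 29, and leaving out 0 h replicate 1 or 2 h replicate 3 gave 30 or 32 risen genes. Leaving out 2 h replicate 1, 2 h replicate 2 or 24 h replicate 3 gave 31, 26 or 72 fallen genes.

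The same genes were read in the SB arm against the same earliest SB libraries. Of the 105 genes higher at 2 h of TGF-β, 22 were called lower at 24 h of SB (21%, against 3.24% of all tested genes) and 3 higher (2.86%, against 2.01%). Their median log2 change under SB was −0.27 at 24 h and −0.26 at 8 h, with medians of 0.01 and 0.08 over all tested genes. After rescaling 48 of 174 were lower at 24 h of SB (27.6%, against 4.07%). The 71 early falls had a median of 0.02 at 24 h of SB, where 10 were called higher (14.1%, against 2.01%) and 7 lower (9.86%, against 3.24%). After rescaling 11 of 85 were called higher (12.9%, against 2.69%) and 11 lower (12.9%, against 4.07%).

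**Figure D3:**
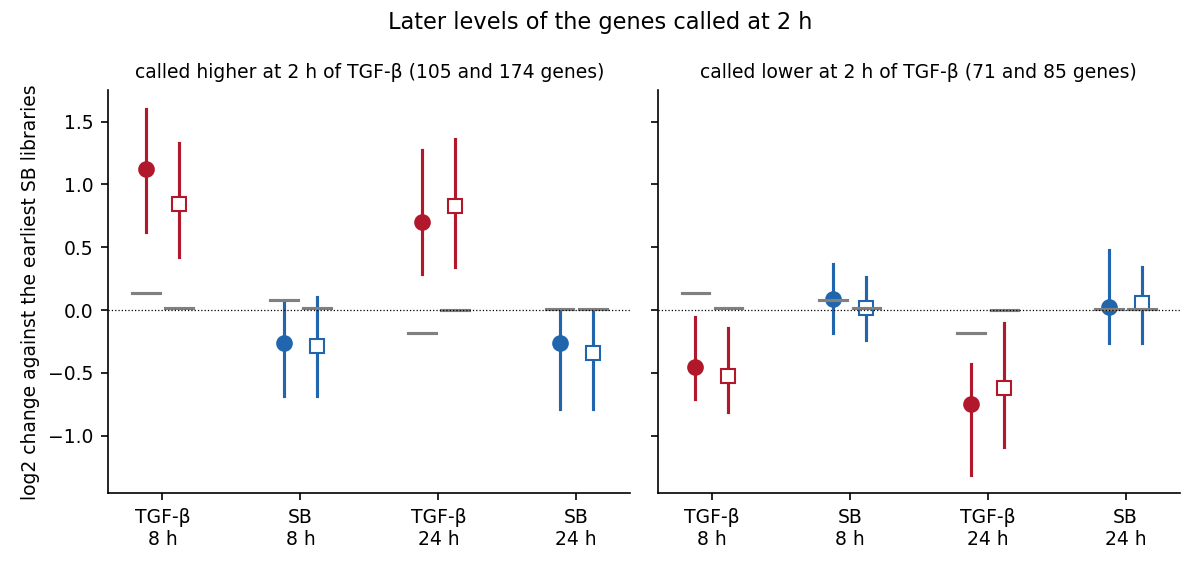
Median (symbols) and quartiles (lines) of the log2 change against the earliest SB libraries for the genes called higher (left) or lower (right) at 2 h of TGF-β; red is TGF-β, blue is SB, filled circles are TPM as deposited, open squares median-of-ratios, and grey ticks the median of all tested genes. The genes called higher at 2 h have medians of 1.13 at 8 h and 0.70 at 24 h of TGF-β as deposited.

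At 8 h limma called 1103 genes higher (5.28%) and 799 lower (3.82%) against 0 h, 9.1% in either direction; after rescaling it called 1088 and 1154 (10.7%), with 1006 higher and 792 lower genes called under both scalings. The direct comparison of 8 h with 2 h called 858 higher (4.11%) and 409 lower (1.96%), 6.06% in all, or 698 and 710 after rescaling (6.74%). That total of 1267 was 819, 842 or 820 without 2 h replicate 1, 8 h replicate 1 or 8 h replicate 3. The count of 1902 against 0 h was 1171 with the compared groups alone in the fit and lay between 1271 and 1429 when 1 library was left out.

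Genes called against 0 h at 8 h but not at 2 h held some of the clearest changes of the course. One stood at 25.5, 29.2 and 26.4 TPM at 8 h and at 27.7, 34.2 and 34.7 TPM at 24 h, after 4.91, 4.46 and 2.03 TPM at 0 h and 3.64, 6.45 and 3.06 TPM at 2 h. Neither later group overlapped the earlier ones. It was not called at 2 h (0.20, limma adjusted p 0.858) and was higher by 2.75 at 8 h and 2.99 at 24 h (SE 0.31; limma adjusted p 3.77e-06 and 4.55e-07). Under SB it stood at 0.514, 0.277 and 0.472 TPM at 8 h, below the 5.31, 2.83 and 3.34 TPM of the earliest SB libraries, and the courses differed by 4.95 at 8 h (SE 0.44, limma adjusted p 2.06e-07). Another climbed in steps: its 3 libraries stood at 5.23 to 6.49 TPM at 0 h, 14.9 to 21.1 TPM at 2 h, 36.6 to 40.5 TPM at 8 h and 22.0 to 32.6 TPM at 24 h. The groups at 0, 2 and 8 h did not overlap, although the 2 h change of 1.51 was not called (limma adjusted p 0.106). The step between 8 h and 2 h was not called either (1.12, limma adjusted p 0.131), while the change at 8 h against 0 h was (2.63, limma adjusted p 0.000273). In the SB arm it was at 0.619 TPM or less at 24 h. The leading fall of this kind was listed at 0 in all 3 libraries at 8 h and at 0.706, 0 and 0 TPM at 24 h, after 12.5, 8.88 and 14.1 TPM at 0 h and 6.93, 11.5 and 11.5 TPM at 2 h. Its SB libraries at 8 h were listed at 0, 6.30 and 0.565 TPM, and the courses of the arms at 8 h differed by −1.83 (SE 0.83, limma adjusted p 0.307); at 24 h they differed by −3.43 (SE 0.83, limma adjusted p 0.0102).

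Another fall ran through all times, with 6.83, 8.52 and 10.0 TPM at 2 h, 1.93, 2.55 and 2.1 TPM at 8 h and 0.689, 0.969 and 0.237 TPM at 24 h, after 15.6, 11.2 and 16.8 TPM at 0 h. No 2 of its 4 groups overlapped, although the 2 h change against 0 h was not called (−0.74, limma adjusted p 0.265). The step between 24 h and 8 h was called as deposited (−1.30, limma adjusted p 0.0125) and not after rescaling (−0.99, limma adjusted p 0.123). The gene was also low at 8 h of SB, at 4.27, 7.15 and 3.12 TPM after 12.2, 14.4 and 10.9 TPM in the earliest SB libraries. The courses were not called different at 2 h or 8 h (−0.40 and −1.12, limma adjusted p 0.825 and 0.146) and were at 24 h (−2.62, SE 0.39, limma adjusted p 0.00011). Rises seen at 8 h and not at 24 h depended on the scaling: 125 genes were called higher at 8 h but not at 2 h or 24 h and lower at 24 h than at 8 h as deposited, and 7 after rescaling, all 7 among the 125.

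The last step, between 8 h and 24 h, was the one most altered by scaling. As deposited limma called 22 genes higher (0.105%) and 1250 lower (5.98%) at 24 h than at 8 h, 6.09% in all, with a median of −0.32 over all genes. After rescaling the median was 0, near which the method places it, and the calls were 88 higher and 30 lower (0.565%). Under both scalings 17 higher and 30 lower genes were called. Among the 24 h libraries, leaving out replicate 1, 2 or 3 gave 233, 222 or 2952 calls as deposited. Among those at 8 h it gave 347, 584 or 349. The total was 5 with the compared groups alone in the fit. After rescaling the total of 118 was 47, 37 or 354 without 24 h replicate 1, 2 or 3.

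**Figure D4:**
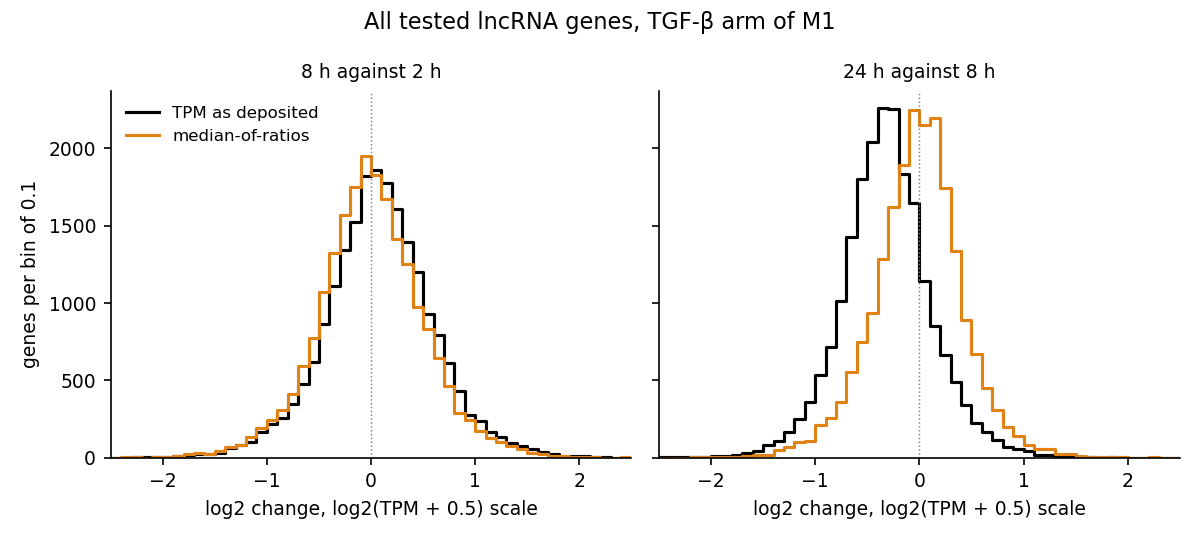
Log2 changes of the 20899 tested genes at 8 h against 2 h (left) and at 24 h against 8 h (right) of TGF-β, as genes per bin of 0.1; black is TPM as deposited and orange median-of-ratios. At 24 h against 8 h the deposited distribution is centred on −0.32 and the rescaled one on 0, near which the method places it.

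Against 0 h, 544 genes were called higher (2.6%) and 2917 lower (14%) at 24 h, 16.6% in all, and 1407 and 1207 after rescaling (12.5%). The share of rises among the calls was 15.7% as deposited and 53.8% rescaled. All 544 higher genes and 1207 lower genes were called under both scalings. The total of 3461 was 1224 with replicates 1 and 2 at 24 h both left out (an alternative added once the values were known) and 1524 with the compared groups alone. Genes called at 24 h but not at 2 h or 8 h were 124 rises and 2178 falls as deposited, and 658 rises and 473 falls after rescaling. Not being called at 8 h does not show that a gene was still at its 0 h level. On simulated data 40.3% of changes of 1 on the log2 scale were called at 8 h. Only 200 of 20899 genes were changed there, each with a mean of at least 1 TPM. The measured 8 h comparison called 1902 genes and tested genes of lower means too, so its own rate may differ.

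**Figure D5:**
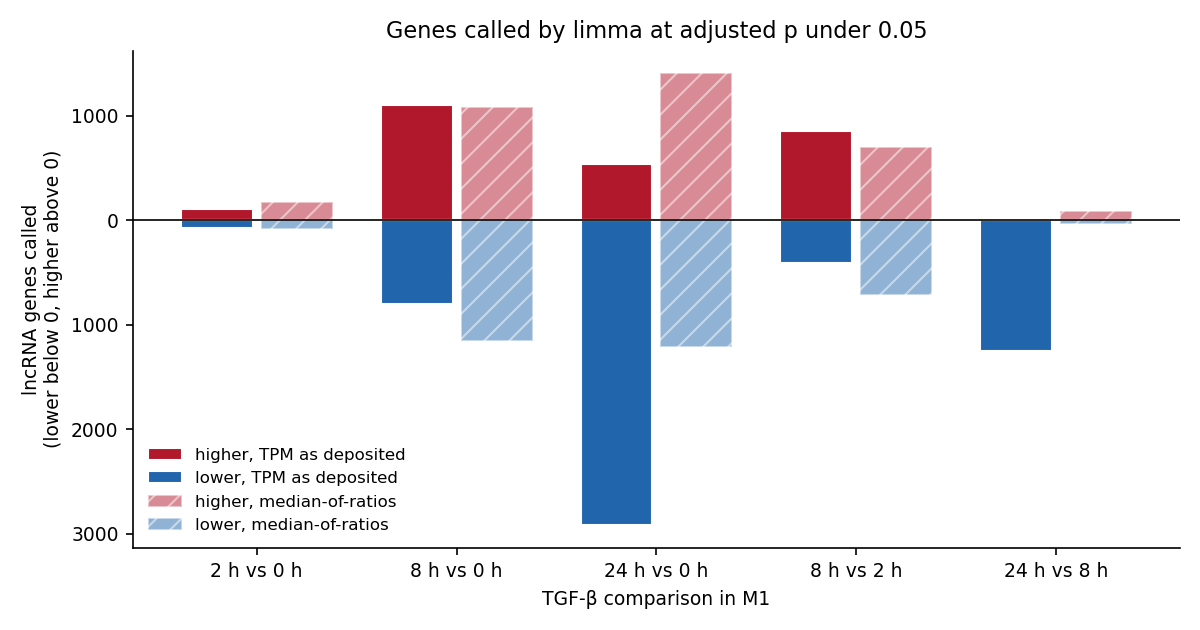
lncRNA genes called by limma at an adjusted p under 0.05 in 5 comparisons within the TGF-β course of M1; bars above 0 are higher genes and bars below 0 lower genes at the later time, solid for TPM as deposited and hatched for median-of-ratios. For 24 h against 8 h there are 1250 lower genes as deposited and 30 after rescaling.

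The late rise chosen by rule, NONHSAG051331.2, stood at 6.49, 30.5 and 3.99 TPM at 0 h, at 33.9, 7.55 and 10.5 TPM at 2 h, at 90.4, 13.1 and 16.2 TPM at 8 h and at 81.7, 88.7 and 95.7 TPM at 24 h. The 24 h libraries lay above those of 0 h and 2 h, and 1 library at 8 h was already at the 24 h level. Its log2 change at 24 h was 3.17 (SE 0.81, limma adjusted p 0.0088), with a limma adjusted p of 0.0567 without 0 h replicate 3 and of 0.132 without 24 h replicates 1 and 2. The earliest SB libraries were higher than every 0 h library, at 34.6, 34.7 and 31.7 TPM, and 24 h of TGF-β was not called against them (1.38, limma adjusted p 0.314). Under SB it stood at 0.926, 7.57 and 15.5 TPM at 24 h, and the courses differed by 5.75 (SE 1.15, limma adjusted p 0.00228). In M2 it stood at 67.7, 225 and 233 TPM at 24 h of TGF-β after 2.36, 5.12 and 5.24 TPM at 0 h, and it was also high at 24 h of SB, between 127 and 180.4 TPM after 4.23 to 5.94 TPM at the start. In MDA-MB-231 it stood at 13.6, 39.8 and 42.4 TPM at 24 h of TGF-β after 61.3, 46.5 and 38.0 TPM at 0 h, and at 119 to 123 TPM at 24 h of SB after 14.6 to 48.4 TPM at the start.

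The late fall chosen by rule, NONHSAG112877.1, varied widely between replicates. It stood at 8.34, 30.0 and 29.2 TPM at 0 h, at 0.248, 22.8 and 23.5 TPM at 2 h, at 0, 6.61 and 7.29 TPM at 8 h and at 0.151, 0.0996 and 0 TPM at 24 h. Its log2 change at 24 h was −5.11 (SE 1.41, limma adjusted p 0.0147), and the call was lost without 0 h replicate 2 or 3 (limma adjusted p 0.0528 and 0.051) and without both 24 h replicates 1 and 2 (limma adjusted p 0.165). The groups at 0 h and 24 h did not overlap, but single libraries near 0 also occurred at 2 h of SB (0.429 TPM) and 24 h of SB (listed at 0), beside others of 21.8 to 24.3 TPM. The 2 arms were not called different at 24 h (−3.08, SE 2.0, limma adjusted p 0.399). In M2 it was at 0.108 TPM or less in the 24 h TGF-β libraries, after 10.3, 0 and 36.3 TPM at 0 h. It was likewise at 0.181 TPM or less in those of 24 h of SB in M2, after 25.9 to 34.3 TPM in the earliest SB libraries. In MDA-MB-231 it stood at 18.6, 21.9 and 15.1 TPM at 24 h of TGF-β.

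Of the 5 leading late rises, the courses of the arms were called different at 24 h in 2 (NONHSAG051331.2 and the one described next). Of the 5 leading late falls they were in 1, described after it. Among all tested genes 2% were called with a higher and 6.11% with a lower change. The leaders were ranked by their 24 h change against 0 h, which is part of the difference of the courses. These counts are therefore not independent of the choice. The rise stood at 14.1, 10.8 and 28.3 TPM at 24 h after 6.12, 4.06 and 2.95 TPM at 0 h (1.84, SE 0.37, limma adjusted p 0.00128), with 7.27 to 10.1 TPM at 8 h. Under SB it was at 0.312, 0 and 0 TPM at 24 h, and the courses differed by 4.59 (SE 0.53, limma adjusted p 4.25e-06). The fall stood at 0.998, 0.216 and 0.939 TPM at 24 h, after 5.68, 3.41 and 4.92 TPM at 8 h and 6.87, 11.8 and 2.24 TPM at 0 h. It was lower at 24 h than at 8 h by a log2 change of −2.14 (limma adjusted p 0.00811), and after rescaling by −1.84 (limma adjusted p 0.051). The courses differed by −3.09 at 24 h (SE 0.59, limma adjusted p 0.00159).

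How much of the 24 h change was in place earlier was read with means of unshared libraries too. Genes were chosen at 24 h against the earliest SB libraries and their earlier changes taken against 0 h. Both used the same spread per gene, from all 24 M1 libraries. The change used for the choice is overstated by it, and the 2 h and 8 h values share the 0 h libraries. The 559 genes chosen as higher had a median log2 change of 0.10 at 2 h, 0.91 at 8 h and 1.09 at 24 h. Among them 49 were called higher at 2 h (8.77%, against 0.502% of all tested genes) and 368 at 8 h (65.8%, against 5.28%). After rescaling the 1266 higher genes had medians of 0.09, 0.59 and 0.97 at the 3 times, and 92 (7.27%, against 0.833%) and 590 (46.6%, against 5.21%) were called higher at 2 h and 8 h.

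The 1114 genes chosen as lower after rescaling had medians of −0.14 at 2 h, −0.63 at 8 h and −0.93 at 24 h. At 2 h 43 of them were called lower (3.86%, against 0.407%) and at 8 h 611 (54.8%, against 5.52%). As deposited the 2150 lower genes had medians of −0.16, −0.39 and −0.89, and 28.4% were called lower at 8 h, against 3.82% of all tested genes. The median of the rises at 8 h lay nearer to that of 24 h than to that of 2 h under both scalings. For the falls this held after rescaling, and as deposited the 8 h median lay nearer to that of 2 h.

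Across all tested genes the TGF-β course was compared with the SB course by the difference of their changes from each arm's start. Limma called 58 genes at 2 h (0.278%), of which 38 (0.182%) had the higher change under TGF-β and 20 (0.0957%) the lower. At 8 h it called 662 (3.17%), 409 higher (1.96%) and 253 lower (1.21%), and at 24 h 1695 (8.11%), 419 higher (2%) and 1276 lower (6.11%). With rescaled libraries it called 94 higher and 23 lower at 2 h (0.56%), 500 and 330 at 8 h (3.97%) and 895 and 567 at 24 h (7%). Under both scalings 419 genes with a higher and 566 with a lower change at 24 h were called. Leaving out earliest SB replicate 3 or 2 h SB replicate 2 gave 35 or 36 calls at 2 h. The SB course against its own start had 17 calls at 2 h (0.0813%; 6 higher, 0.0287%, and 11 lower, 0.0526%), 770 at 8 h (3.68%; 391 higher, 1.87%, and 379 lower, 1.81%) and 1097 at 24 h (5.25%).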

How the data were processed

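The authors deposited TPM values of lncRNA genes for 72 libraries; each column is scaled to one common total over these genes alone, so TPM is a share within lncRNA. Per the submitters' processing notes, FastQC, cutadapt 2.10, HISAT2 2.2.0, StringTie 1.3.6 and GRCh38 were used; roles, annotation release and strand were not named there. TPM keeps no depth, so depth and counting error are unknown, and overlapping or near-identical genes cannot be separated. The 24 M1 libraries (8 groups of 3) were fitted together on log2(TPM + 0.5) with limma 3.58.1 (eBayes with trend) in R 4.3.3, for genes of 0.5 TPM or more in at least 3 libraries. Tests were two-sided, with Benjamini-Hochberg adjustment over 20899 genes. Simulated data of the 24 h comparison held 20899 genes, of which 200 were changed, each with a mean of at least 1 TPM. There 78.8% of changes of 2 on the log2 scale, 35.8% of 1 and 5.97% of 0.5 were called, with 3 false calls. Deviations from the group means were shuffled within each gene, which removes any shift shared by the genes of a library. The false calls therefore do not cover a shift such as that of the 24 h libraries. Rates in the measured data, where more genes were called, may differ.

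Printed identifiers had a mean of at least 5 TPM and no overlap with 0 h, and led by the smallest change over 3 times (called at all) or by the 24 h change (unadjusted p over 0.05 at 2 h and 8 h). Other genes were taken from the 5 largest changes of each time pattern with a mean of at least 1 TPM; which of these are shown was decided after their values were seen. None of the 96411 identifiers matched the RefSeq or GENCODE tables (0 matches). Members, patterns and tests were chosen with earlier results of these data known. Alternatives were other pseudocounts, filters and scalings, a replicate block, fits of the compared groups only, and fewer libraries.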

Additional observations from a re-analysis of the deposited data

Results flagged for a closer look

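Genes whose change under TGF-β differed from that under SB, by a test of the difference itself, are listed here with the log2 difference between the 2 courses. The printed identifiers had been chosen by their changes against 0 h, which are part of these differences. For them the test is therefore not independent of the choice. NONHSAG031936.3 differed by 4.56 at 8 h and 4.71 at 24 h, NONHSAG051331.2 by 5.75 at 24 h, and NONHSAG009471.2 by −1.97 at 2 h, −3.24 at 8 h and −3.55 at 24 h. Over all tested genes limma called 58 such differences at 2 h, 662 at 8 h and 1695 at 24 h. For NONHSAG031936.3 and NONHSAG051331.2 the starting means were 1.85 and 13.6 TPM at 0 h of the TGF-β arm and 7.13 and 33.7 TPM in the earliest SB libraries. The log2 changes of 0 h against the earliest SB libraries were −2.67 (SE 0.58) and −1.79 (SE 0.81). Limma did not call them (adjusted p 0.527 and 0.863), with unadjusted limma p of 0.000135 and 0.0393. Such a gap between the starts enters the difference of the courses in full.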

How the results depend on the processing

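Scaling moved 3 totals by over 1.5 times, and the split into higher and lower genes in more comparisons: after rescaling, 24 h had 1407 higher and 1207 lower genes against 0 h (544 and 2917 as deposited) and 1203 and 921 against 2 h (416 and 2187 as deposited), and the difference of courses at 24 h had 895 and 567 (419 and 1276 as deposited). With median-of-ratios scaling, with a total that omits the 10 most abundant genes and with quantile-normalised values, 24 h against 8 h had 118, 82 and 67 calls (1272 as deposited), the difference of the courses at 2 h had 117, 94 and 113 (58 as deposited), and the early rises also higher at 24 h against the earliest SB libraries numbered 92, 95 and 97 (49 as deposited). In fits of the compared groups alone, the calls were 8 for 2 h, 1171 for 8 h and 1524 for 24 h against 0 h, 463 for 8 h and 587 for 24 h against 2 h, 5 for 24 h against 8 h, 1238 for 8 h and 1231 for 24 h against the earliest SB libraries, and 26 for the difference of courses at 2 h; these fits hold fewer libraries. With replicates 1 and 2 at 24 h both left out, and the lone library assumed to vary like the other groups, 24 h had 1224 calls against 0 h, 884 against 2 h, 57 against 8 h and 1128 against the earliest SB libraries. In that setting the difference of courses at 24 h had 828 calls, and 28 early falls were also lower at 24 h (47 as deposited). Rescaled and without 24 h replicate 1, 2 or 3, 24 h against 8 h had 47, 37 or 354 calls, and without replicate 1 or 2 there were 2062 or 2053 against 0 h and 1612 or 1605 against 2 h. Both of these settings were added once the values were known.

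Leaving out 1 library gave 85 to 122 calls for 2 h against 0 h, 819 to 1007 for 8 h against 2 h, 1538 to 3111 for 24 h against 2 h, 222 to 2952 for 24 h against 8 h, 1244 to 1463 and 1772 to 3008 for 8 h and 24 h against the earliest SB libraries, and 35 to 52 for the difference of courses at 2 h. The early rises and falls also called at 24 h were 29 to 47 and 26 to 72. The lowest values against the earliest SB libraries came without earliest SB replicate 1 (8 h) and 3 (24 h), and that for 24 h against 2 h without 2 h replicate 3. The cause of these shifts was not tested. Same-numbered replicates did not deviate together (18 correlations from −0.044 to 0.032); with a replicate block the calls were 183 at 2 h, 1978 at 8 h and 3534 at 24 h against 0 h, and no total moved by over 1.5 times. The 2 h changes of NONHSAG051331.2 (0.55) and NONHSAG112877.1 (−1.42), neither of them called, ran from −0.07 to 1.37 and from −2.26 to 0.24 when 1 library was left out; the other printed changes of the 4 named genes against 0 h had 1 sign in every alternative run. TPM without counts sets no limit of detection.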
